A study of Mus musculus with 8 samples.

Results

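The genes described here are 36 genes of 3 DNA repair pathways in the crypts of the mouse jejunum. Of these, 18 belong to base excision repair, 14 to nucleotide excision repair and 4 to mismatch repair. They were taken by gene name from the probes of a whole-genome array that names 30325 genes, with the brightest probe standing for a gene. The data are 8 single-colour Agilent arrays, 1 per mouse, of RNA cut by laser capture microdissection from the lower crypt, where the intestinal gland ends and stem cells are wedged between Paneth cells. A group of 4 mice was fasted for 24 h and then given 80 mg/kg etoposide into the tail vein, and the other 4 mice were fed until the same dose. Etoposide is a drug that traps topoisomerase II on broken DNA. Tissue was taken 3 h later, and the mice of both groups had moistened food in between. Both groups were 4 to 6 weeks old and carried the Lgr5EGFP-IRES-CreERT2/+ reporter allele, in which the stem cell gene Lgr5 drives EGFP and an inducible Cre. The labels give 2 males and 2 females in each group. Every mouse had etoposide, so fasting followed by refeeding is compared with feeding after the drug, and fasting and refeeding cannot be told apart.

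Base excision repair removes single damaged bases. A glycosylase cuts the base from the sugar, an AP endonuclease nicks the strand at the empty site, and a polymerase and a ligase fill and seal the gap, while PARP enzymes sense the broken strand. Nucleotide excision repair removes bulky lesions as a short stretch of strand. The lesion is found by recognition factors or by a stalled RNA polymerase, the TFIIH complex opens the helix, and a pair of nucleases cuts on either side. Mismatch repair corrects copying errors, with MutS homologues that bind the mismatch and MutL homologues that direct the cut. Etoposide causes strand breaks bound to protein rather than the lesions for which these pathways are best known. Crypt cells divide throughout life, and inherited loss of mismatch repair is a known cause of bowel cancer in people.

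Levels are log2 processed signals minus the 75th percentile of the same array, so a level of 0 is the brightness below which 75% of that array's probes lie. Such levels compare arrays for 1 probe and do not rank genes against each other. A probe was tested where it cleared the scanner's background test, here called well above background, on 4 or more of the 8 arrays. Between 53.6% and 65.4% of probes did so on the fasted arrays, and between 53.2% and 62.7% on the fed arrays. Of the 36 genes 30 were tested and 27 were well above background on all 8 arrays. The other 6, Parp2, Ogg1, Mbd4, Neil3, Ercc6 and Pms2, were not well above background on any array with any probe. Fasted replicate 3 was least like the rest, correlating at 0.825 to 0.923 with them across genes, and was the only array of the later of 2 scan days. Fed replicate 4 went against its labelled sex: its probe for Xist, the RNA of the inactive X chromosome, read 4.69 on the log2 scale, while the other labelled females read 13.69, 13.38 and 13.09. Values without these libraries are given where they move a larger difference by over 1.5 times or turn its sign. The stem cell marker Lgr5 itself did not clear background on any of the 8 arrays, whereas all 7 Paneth cell markers on the array were tested, among them Lyz1, the lysozyme gene.

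The 60-base probes of 4 genes are shown, since the results turn on what they read: Parp1 and Gtf2h2 had an unadjusted p under 0.05, Apex1 and Gtf2h2 had groups that did not overlap, and Lig3 was chosen after its values were seen. They are as deposited, 5′ to 3′, with the mm9 positions of the files. Parp1 lies at chr1:182530341-182530639 and Lig3 at chr11:82613739-82613798, both on the plus strand. Apex1 lies at chr14:51546483-51546542 on the plus strand. The 2 Gtf2h2 probes lie at chr13:101252899-101252958 and chr13:101250544-101250959 on the minus strand. The Parp1 positions span 299 bases and those of the second Gtf2h2 probe 416 bases, longer than the 60-base probe. Exons and UTRs were not assigned here, since no mm9 annotation was used.
Parp1: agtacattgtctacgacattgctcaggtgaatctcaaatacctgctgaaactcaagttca
Lig3: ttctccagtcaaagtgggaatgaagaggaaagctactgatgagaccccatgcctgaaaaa
Apex1: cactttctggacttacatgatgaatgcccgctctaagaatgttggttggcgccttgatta
Gtf2h2, brightest: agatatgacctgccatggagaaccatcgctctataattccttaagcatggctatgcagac
Gtf2h2, second: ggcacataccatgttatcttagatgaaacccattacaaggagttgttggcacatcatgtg

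The first comparison asked whether these repair genes stood at other levels in crypts of fasted mice than in crypts of fed mice after etoposide. No repair gene passed the test. Of the 30 genes 15 were higher and 15 lower in fasted crypts, and the median log2 difference was 0.01, against a median of -0.06 over all 19512 genes tested, of which 44.5% were higher. The differences of the 30 genes ran between -0.57 for Apex2, an AP endonuclease, and 0.94 for Ercc3, a TFIIH helicase, so none reached 2-fold with these settings. The largest on the fasted side after Ercc3 were Parp1, Gtf2h2, Lig3 and Polb, and the largest on the fed side after Apex2 were Mutyh and Ung.

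Limma with group and labelled sex as terms called 0% of the 19512 genes at a Benjamini-Hochberg adjusted p under 0.05, and the smallest adjusted p was 0.787. Without adjustment 4 of the 30 repair genes had p under 0.05, 3 of them higher in fasted crypts, beside 5.96% of all genes, of which 3.94% were higher and 2.02% lower. Every fasted array lay above every fed array for 3 of the 30, Apex1, Ercc3 and Gtf2h2, beside 3.00% of all genes, and below for 0, beside 1.98%, or 4.98% on either side. In simulated arrays the test found 8.7% of genes shifted by 1 log2 unit and 47.2% of those shifted by 2. Fewer cells of a type and less RNA per cell cannot be told apart in these captures. Nothing in the labels says that mice came from separate litters or days. The fit has no term for slide or scan day, so its p-values measure a spread that mixes these mice with their slides and scan days.

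**Figure D1:**
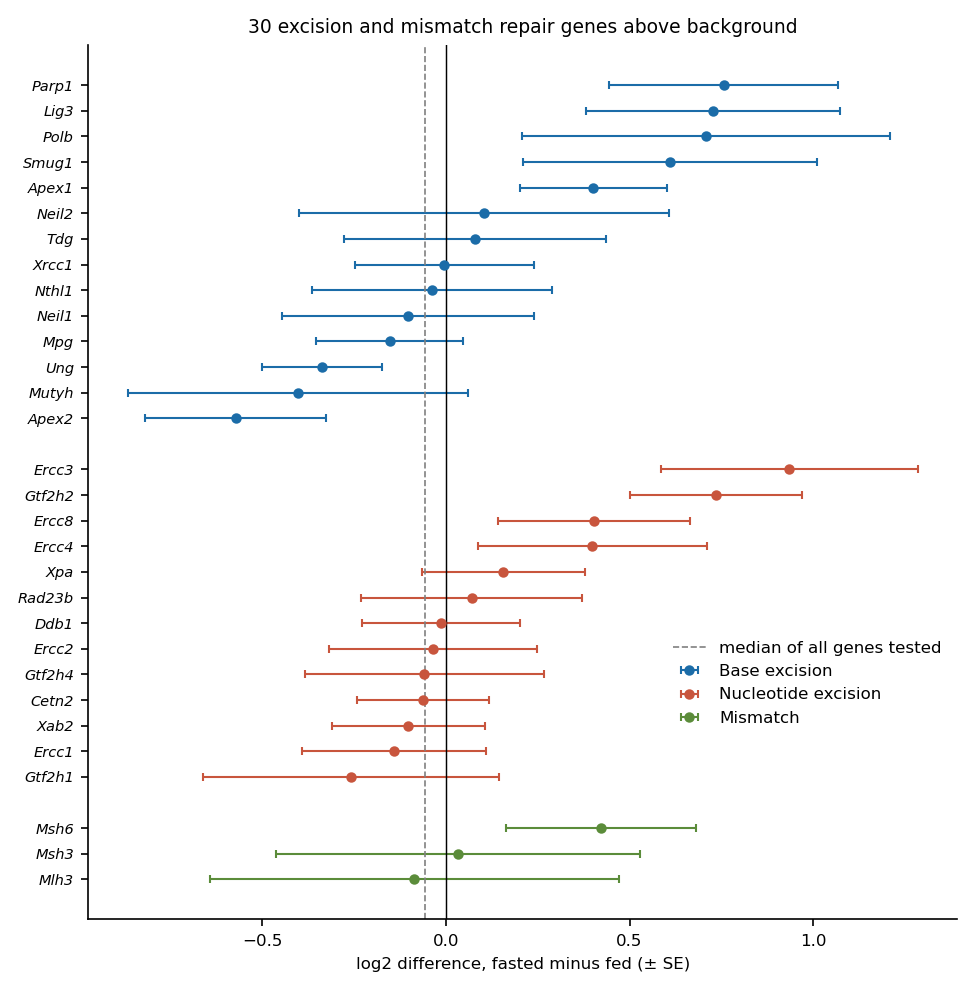
Log2 difference, fasted minus fed, of each of the 30 repair genes tested, with its standard error as a bar, grouped by pathway. The dashed line is the median of all genes tested at -0.06, and most bars cross 0, with Ercc3 farthest to the right at 0.94 and Apex2 farthest to the left at -0.57.

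The medians of the 3 pathways lay near 0, and differences between pathways were not tested. In base excision repair 7 of 14 genes were higher in fasted crypts, with a median of 0.04. In nucleotide excision repair 6 of 13 were higher, with a median of -0.01, and in mismatch repair 2 of 3, with a median of 0.03. The mean deviation of the base excision genes from their own means was 0.16, -0.04, 0.16 and -0.03 on fasted replicates 1 to 4, and -0.03, -0.02, 0.00 and -0.21 on fed replicates 1 to 4. The nucleotide excision genes averaged 0.10, -0.05, 0.47 and -0.21 on the fasted arrays, and -0.03, 0.06, -0.08 and -0.26 on the fed arrays. The mismatch genes averaged 0.16, 0.72, -0.64 and 0.00 on the fasted arrays, and -0.44, 0.18, -0.02 and 0.03 on the fed arrays. In every pathway the groups overlapped, and fasted replicate 3 was both the highest array for nucleotide excision and the lowest for mismatch repair. Of the 30 genes, 14 had their highest level and 4 their lowest on that single array.

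**Figure D2:**
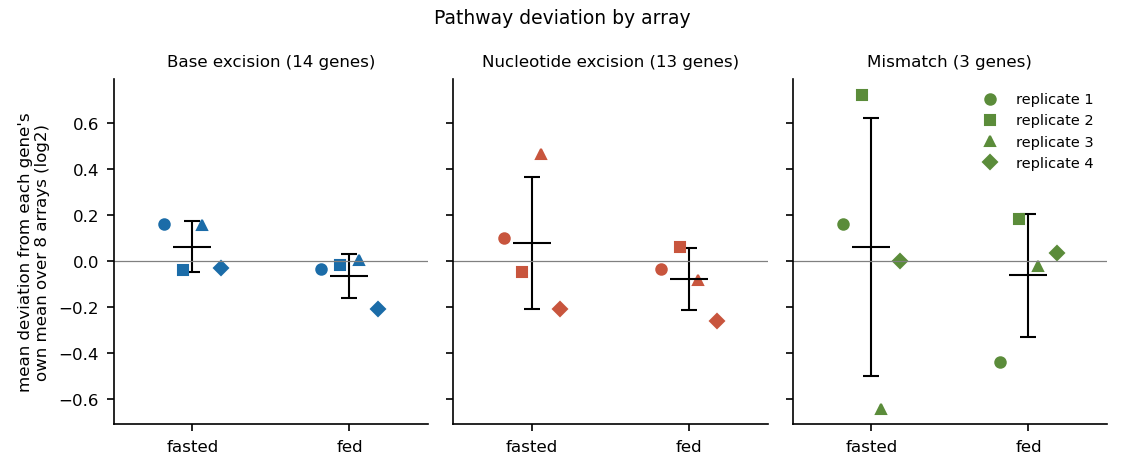
Mean deviation of the genes of each pathway from their own means over 8 arrays, in log2 units, with 1 point per array and the mean and SD of the 4 arrays of a group. The fasted arrays spread more widely than the fed arrays in each pathway. The SD was 0.56 against 0.27 for mismatch repair, 0.29 against 0.14 for nucleotide excision and 0.11 against 0.10 for base excision. The groups overlap in each pathway.

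Leaving out fasted replicate 3, fed replicate 4 or both left 0 genes called. Without fasted replicate 3, 2 of the 30 repair genes (6.67%) had an unadjusted p under 0.05, beside 8.54% of all genes. Without fed replicate 4 there was 1 (3.33%), beside 5.22% of all genes, and without both there were 2 (6.67%), beside 8.98%. In each of these sets the share of repair genes was thus below that of all genes. The count of repair genes without overlap was 5 of 30 (16.7%) without fasted replicate 3, beside 8.61% of all genes. It was 4 (13.3%) without fed replicate 4, beside 8.79%, and 8 (26.7%) without both, beside 15.9%. For all 8 arrays it was 3 (10%), beside 4.98%. By this count the share of repair genes was above that of all genes in each set. By the unadjusted limma p-values it was above with all 8 arrays, at 4 of 30 (13.3%) beside 5.96%, and below in the smaller sets. The shares without overlap were larger in the smaller sets than with all 8 arrays, for repair genes and for all genes. The gap between repair genes and all genes was not tested. The median of the mismatch genes was 0.39 without fasted replicate 3 and 0.24 without fed replicate 4, while that of the base excision genes was 0.09 and -0.08. The mismatch median was -0.39 without fed replicate 1, where it was lowest over the arrays left out in turn, and -0.26 without fasted replicate 2. With 3 genes its sign thus depended on single arrays.

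Among the sensors of strand breaks, Parp1, which marks breaks with poly(ADP-ribose) and draws in the repair proteins, stood at -0.27, -0.16, 0.20 and -1.11 on fasted replicates 1 to 4. The fed arrays read -1.05, -0.79, -1.38 and -1.14. Fasted replicates 1 to 3 lay above all fed arrays and fasted replicate 4 lay among them. The fasted arrays averaged -0.33 ± 0.55 and the fed arrays -1.09 ± 0.24 (SD, n = 4 each), a 1.69-fold higher level in fasted crypts. The log2 difference was 0.76 (SE 0.31), with an unadjusted p of 0.041 and an adjusted p of 0.787 in limma. It was 0.48 without fasted replicate 3 and 0.42 with array weights. With each array left out in turn it was 0.48 to 1.01, which passed 2-fold at its highest. Parp2, the related enzyme, cleared background on 0 of 8 arrays, with levels of -5.69 to -3.80 on fasted arrays and -5.87 to -3.98 on fed arrays.

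The glycosylases differed in both directions. Of the 11 on the array 8 were tested, and 3 were higher and 5 lower in fasted than in fed crypts, at a median of -0.07. Mutyh, which removes adenine paired with oxidised guanine, stood at -0.61, 0.36, -1.42 and 0.38 on the fasted arrays and at -0.05, -0.50, 0.71 and 0.17 on the fed arrays. The fasted arrays held both the lowest level and levels as high as most fed arrays, and the difference of -0.40 was below its standard error of 0.46 and was 0.069 without fasted replicate 3. Its second probe cleared background on 0 fasted arrays and on 1 fed array.

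Smug1, a glycosylase for uracil, was higher by 0.61 (SE 0.40) in fasted crypts, and by 0.40 without fed replicate 4. The oxidised-base glycosylases Nthl1 and Neil1 differed by -0.04 (SE 0.33) and -0.10 (SE 0.34), and each had 1 fasted array far from the rest. Neil2, of the same family, differed by 0.10 (SE 0.50) and was well above background on 3 fasted and 2 fed arrays. Tdg, which removes thymine from mismatches with guanine, differed by 0.08 (SE 0.36), and the mean of its probes by 0.58. Its second probe that passed the filter gave 0.14 and was well above background on 3 fasted and 2 fed arrays. The third gave 1.51 but was well above background on 4 fasted and 2 fed arrays. That probe read -5.71 and -5.85 on fed replicates 1 and 2. Mpg, which removes alkylated bases, differed by -0.15 (SE 0.20). Ogg1, the main glycosylase for oxidised guanine, Mbd4, which acts at methylated CpG sites, and Neil3 were not well above background. Ogg1 read -6.14 to -5.30 on the fasted arrays and -6.06 to -5.47 on the fed arrays.

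Ung, the main uracil glycosylase, stood at 7.35, 7.04, 7.43 and 7.18 on the fasted arrays and at 7.87, 7.75, 7.39 and 7.33 on the fed arrays. Both highest arrays were fed and the lowest was fasted, with the others between them. The difference was -0.34 (SE 0.16), with an unadjusted p of 0.073 in limma. The probe that reads Ung holds a run of 34 bases of a dinucleotide repeat, GT, and the next longest such run among the probes of the repair genes is 6 bases. Another 51 probes on the array hold such a run of at least 20 bases, and all 51 were well above background on all 8 arrays. All 51 were lower in fasted crypts, with differences of -0.49 to -0.15 and a median of -0.29, and the Ung value lies in that range. The Ung difference was -0.020 with quantile normalization and 0.024 in the authors' deposited matrix. The levels of the 51 probes were also high, with group means of 4.39 to 8.59, and the Ung means of 7.25 (fasted) and 7.59 (fed) lie in that range. The part of the repeat in the Ung level and difference was not tested.

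**Figure D3:**
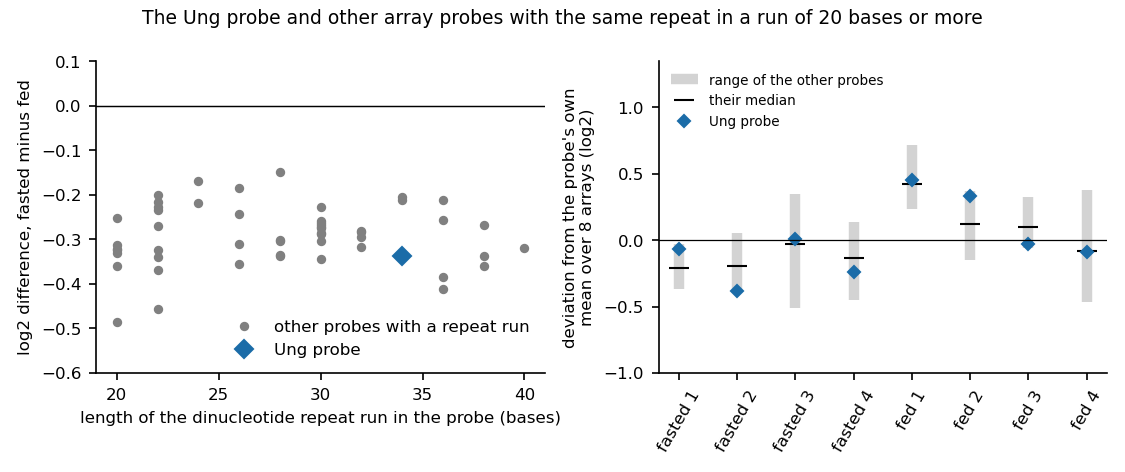
Left, log2 difference, fasted minus fed, of the Ung probe and of the 51 other probes with the same repeat, against the length of the run in bases. Right, deviation from the probe's own mean on each array in log2 units for Ung, with the range and median of the other 51. The Ung difference of -0.34 lies inside the range of the others, -0.49 to -0.15.

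The AP endonucleases differed in opposite directions. Apex1, which makes nearly all cuts at empty sites in mammalian cells, stood at 0.96, 0.96, 1.40 and 0.88 on the fasted arrays and at 0.72, 0.70, 0.59 and 0.58 on the fed arrays. Every fasted array lay above every fed array, by 0.16 at the closest pair. The difference was 0.40 (SE 0.20), a 1.32-fold higher level in fasted crypts, with an unadjusted p of 0.080 in limma, and it was 0.27 without fasted replicate 3. Apex2, a second AP endonuclease with a minor role, stood at -0.06, -0.07, -0.19 and -0.14 on the fasted arrays and at -0.07, 0.69, 0.41 and 0.81 on the fed arrays. The fasted arrays lay close together, and 3 fed arrays lay above them while fed replicate 1 lay among them. The difference was -0.57 (SE 0.25), a 1.49-fold higher level in fed crypts, with an unadjusted p of 0.048 and an adjusted p of 0.787 in limma.

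Of the genes that fill and seal the gap, Lig3, the ligase of this step in nucleus and mitochondria, was chosen for display after its values were seen. It stood at -0.66, -0.19, 0.40 and -0.89 on the fasted arrays and at -1.36, -0.63, -1.29 and -0.97 on the fed arrays. Fasted replicates 2 and 3 lay above all fed arrays. The difference was 0.73 (SE 0.35), with an unadjusted p of 0.068 in limma. A second Lig3 probe gave 0.71, and the first gave 0.44 without fasted replicate 3 and 0.32 with array weights. With each array left out in turn the first gave 0.44 to 0.95. Polb, the gap-filling polymerase, was higher by 0.71 (SE 0.50) but was well above background on 4 fasted and 2 fed arrays. Its difference was 0.44 without fasted replicate 3 and 0.19 with normexp background correction. With each array left out in turn it was 0.44 to 1.19, which passed 2-fold at its highest. Xrcc1, the scaffold that holds Lig3, differed by -0.00 (SE 0.24).

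**Figure D4:**
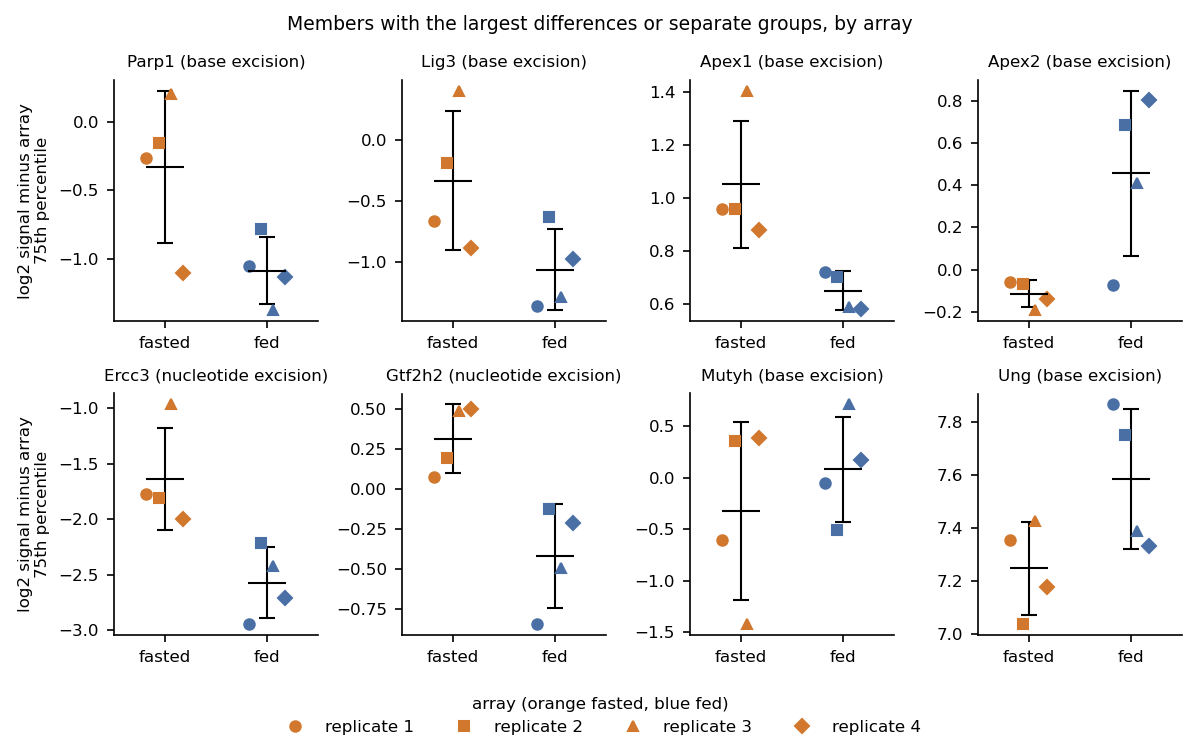
Levels of 8 repair genes by array, as log2 signal minus the array's 75th percentile, with 1 point per array and the mean and SD of each group of 4. Apex1, Ercc3 and Gtf2h2 have all fasted arrays above all fed arrays. In Parp1 fasted replicate 4 lies among the fed arrays, and in Lig3 fasted replicates 1 and 4 do.

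In nucleotide excision repair the recognition factors lay near 0. Ddb1, which binds damaged chromatin as part of a ubiquitin ligase, differed by -0.01 (SE 0.22), and Rad23b and Cetn2, partners of the lesion sensor XPC, by 0.07 (SE 0.30) and -0.06 (SE 0.18). In the branch coupled to transcription, Ercc8 was higher by 0.40 (SE 0.26) in fasted crypts, and by 0.19 without fasted replicate 3, with a second probe at 0.18. Xab2 differed by -0.10 (SE 0.21). Ercc6, which binds the stalled polymerase, did not clear background.

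The TFIIH genes held both the largest difference of the 30 genes and the smallest p. Ercc3, the helicase XPB that opens the strand at promoters and lesions, stood at -1.78, -1.81, -0.97 and -2.00 on the fasted arrays and at -2.94, -2.22, -2.42 and -2.71 on the fed arrays. Every fasted array lay above every fed array, and the closest pair was 0.22 apart. The fasted arrays averaged -1.64 ± 0.46 and the fed arrays -2.57 ± 0.32 (SD, n = 4 each), a 1.91-fold higher level in fasted crypts. The log2 difference was 0.94 (SE 0.35), with an unadjusted p of 0.027 and an adjusted p of 0.787 in limma, and it was 0.70 without fasted replicate 3. It was 0.46 with normexp background correction, and passed 2-fold at 1.12 in the authors' deposited matrix, at 1.11 without fasted replicate 4 and at 1.05 with the above-background share of each array as a covariate.

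Gtf2h2, a core TFIIH subunit that regulates the helicase XPD, stood at 0.07, 0.19, 0.49 and 0.50 on the fasted arrays and at -0.85, -0.13, -0.49 and -0.22 on the fed arrays. All fasted arrays were above 0 and all fed arrays below it. The fasted arrays averaged 0.31 ± 0.22 and the fed arrays -0.42 ± 0.32 (SD, n = 4 each), a 1.66-fold higher level in fasted crypts. The difference was 0.74 (SE 0.23), with an unadjusted p of 0.013 and an adjusted p of 0.787 in limma, and 0.72 without fasted replicate 3. The second Gtf2h2 probe, shown above, read -0.46, -0.78, 0.04 and -1.20 on the fasted arrays and -1.15, -0.93, -0.81 and -0.88 on the fed arrays. Its difference was 0.34, and fasted replicate 4 was its lowest array, so the groups overlapped. The other TFIIH genes did not share the size of these differences: Ercc2, the helicase XPD, differed by -0.04 (SE 0.28), Gtf2h1 by -0.26 (SE 0.40, and -0.59 without fasted replicate 3) and Gtf2h4 by -0.06 (SE 0.32).

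Downstream of TFIIH, Xpa, which checks the lesion and places the nucleases, differed by 0.16 (SE 0.22), and its second probe by -0.05. Ercc4, the catalytic subunit of the nuclease that cuts 5′ of the lesion, was higher by 0.40 (SE 0.31), by 0.16 without fasted replicate 3 and by 0.26 without fed replicate 4. Its partner Ercc1 differed by -0.14 (SE 0.25) with all arrays and by -0.31 without fasted replicate 3. Each of these brightest-probe differences was under 2 standard errors.

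The mean of the mismatch repair genes had the widest spread over arrays of the 3 pathways in both groups. It is a mean over 3 genes, beside 14 in base excision and 13 in nucleotide excision, so the spreads are not alike in kind. All 3 tested genes are shown, a choice made after their values were seen. Msh6, whose protein binds single mismatches, stood at 1.82, 1.30, 1.38 and 0.46 on the fasted arrays and at 1.39, 1.09, 0.34 and 0.45 on the fed arrays, a difference of 0.42 (SE 0.26) that was 0.22 without fasted replicate 3. Msh3, whose protein binds larger loops, stood at -1.96, -1.07, -2.75 and -1.55 on the fasted arrays and at -2.89, -1.36, -1.83 and -1.38 on the fed arrays. Its groups overlapped fully, and the difference was 0.03 (SE 0.50). A second Msh3 probe was well above background on 3 fasted and 0 fed arrays, short of the 4 arrays needed for a test. It read -2.24, -3.53, -2.72 and -4.15 on the fasted arrays and -4.82, -5.25, -3.86 and -4.39 on the fed arrays. Fed replicate 3 lay above fasted replicate 4, so the groups overlapped. Each fed array was also counted at its own signal or at the dimmest signal that cleared background there, whichever is higher. The fasted mean was then 1.49-fold higher, which is no lower bound, since not every fasted array cleared background. Mlh3, a MutL homologue known mainly for its role in meiosis, stood at -2.23, -0.92, -3.42 and -1.76 on the fasted arrays and at -2.68, -2.04, -1.44 and -1.82 on the fed arrays. Its difference was -0.09 (SE 0.56), and 0.42 without fasted replicate 3, its lowest array. Pms2, the main MutL endonuclease subunit, was not well above background with either probe.

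Among the 12 repair genes with several probes, 7 had more than 1 probe that passed the filter, and for 5 of these 7 all such probes differed in 1 direction. The exceptions were Neil1, whose second probe gave 0.60 beside -0.10, and Xpa. That second Neil1 probe was well above background on 4 fasted and 3 fed arrays. It read -4.21 on fed replicate 4, against -2.62 to -2.04 on the other fed arrays.

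The data hold 3 slides with 1 fasted and 1 fed array each, which give differences within a slide. Between fasted replicate 1 and fed replicate 1 the median was 0.04 for base excision, 0.04 for nucleotide excision and 0.45 for mismatch repair. Between fasted replicate 2 and fed replicate 3 it was -0.27, -0.11 and 0.75 in the same order, and between fasted replicate 4 and fed replicate 4 it was 0.18, 0.13 and 0.01. Over all genes the within-slide medians were -0.07, -0.04 and -0.00. The base excision and nucleotide excision medians lay above 0 in 2 slides and below it in the other, and the mismatch medians lay above 0 in all 3.

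The genes with separate groups were higher in the fasted array of every slide. Ercc3 differed by 1.17, 0.61 and 0.71 within the slides, Gtf2h2 by 0.92, 0.69 and 0.72, and Apex1 by 0.24, 0.37 and 0.30. Parp1 differed by 0.78, 1.22 and 0.03, and Lig3 by 0.70, 1.09 and 0.09, so for both the third slide held almost no difference. Apex2 differed by 0.02, -0.48 and -0.95, and Ung was lower in the fasted array of each slide. A direction within slides repeats arrays already used in the comparison and is no separate support.

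**Figure D5:**
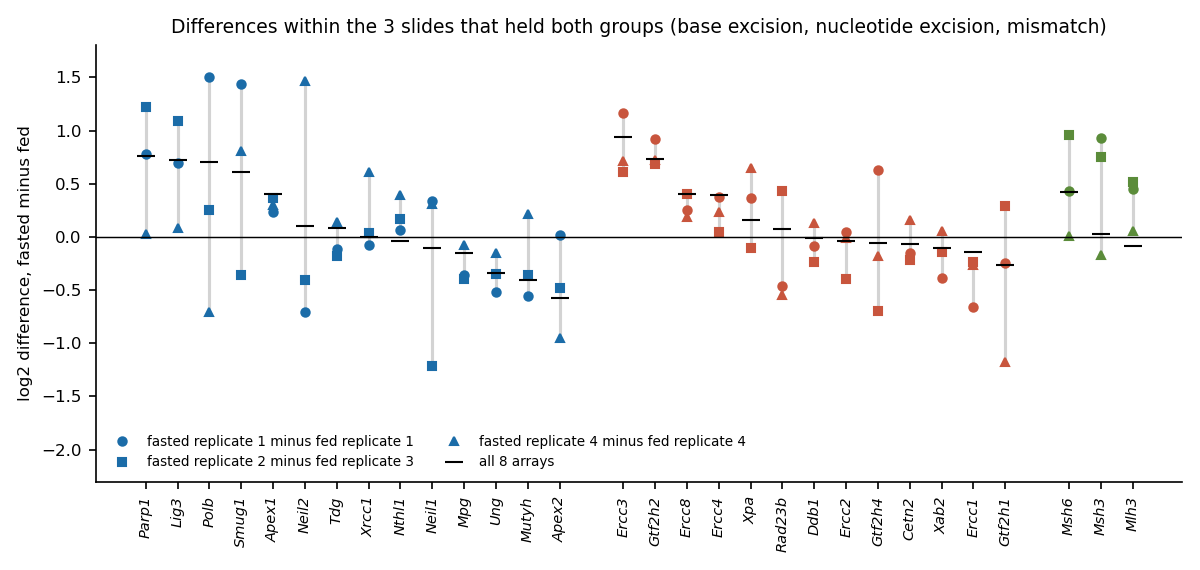
Log2 difference, fasted minus fed, of each repair gene within the 3 slides that held both groups, as 3 symbols joined by a grey line, with the all-array difference as a black bar. Colours mark base excision, nucleotide excision and mismatch repair from left to right. Gtf2h2 ranges from 0.69 to 0.92 and Apex1 from 0.24 to 0.37 over the slides, while Parp1 ranges from 0.03 to 1.22.

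Markers of other crypt and villus cells were set beside these values, and none of their genes passed the adjusted test. Of 18 enterocyte genes 17 were higher in fasted crypts, with a median difference of 1.15, and their summed level on the log2 scale was 6.41 to 7.63 on fasted arrays and 5.23 to 6.31 on fed arrays. Of 7 Paneth cell genes 0 were higher, with a median of -0.48 and a summed level of 8.25 to 8.46 on fasted arrays and 8.51 to 9.14 on fed arrays. Of 18 proliferation genes 13 were higher, with a median of 0.14 and a summed level of 4.04 to 5.02 on fasted arrays and 4.09 to 4.63 on fed arrays. Of 9 tested stem cell genes 4 were higher, with a median of -0.05. In the proliferation list Top2a, Bub1, Aurkb and Cdc6 were not well above background. The part of cell makeup in the repair gene differences was not tested.

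Another 49 genes of the same pathways were examined, which are cofactors of the 3 pathways and the clamp, clamp loader and polymerases that resynthesise DNA in all of them. Of 44 tested, 31 were higher and 13 lower in fasted crypts. Their median was 0.12, beside 44.5% higher and a median of -0.06 over all genes. Limma called 0 of them, 3 had an unadjusted p under 0.05, beside 5.96% of all genes, and 3 had every fasted array above every fed array, beside 3.00%. The resynthesis genes were higher in 13 of 17, with a median of 0.27, the base excision cofactors in 8 of 10, the nucleotide excision cofactors in 7 of 12 and the mismatch cofactors in 3 of 5.

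Among the 6 with the smallest p were Pold2, Lig1, Rfc4 and Cul4b. Pold2, a subunit of DNA polymerase delta, was higher by 0.57 (SE 0.22), Rfc4, a subunit of the clamp loader, by 0.45 (SE 0.21), and Cul4b, the scaffold of a DDB1 ubiquitin ligase, by 0.60 (SE 0.28). Lig1, the ligase of replication and long-patch repair, differed by -0.66 (SE 0.27, unadjusted p 0.040 in limma), the opposite direction to Lig3. The adjusted p was 0.787 for each of these 4 genes in limma.

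The design also allows a comparison of labelled males with labelled females. Limma called 0% of 19512 genes for it, and 2 of the 30 repair genes had an unadjusted p under 0.05, beside 2.21% of all genes. Msh6 was higher by 0.75 (SE 0.26) in arrays labelled male, with an unadjusted p of 0.020 in limma. Its levels were 1.82, 1.30, 1.39 and 1.09 in labelled males, against 1.38, 0.46, 0.34 and 0.45 in labelled females, and 1 labelled female lay among the males. Without fed replicate 4, the array that went against its labelled sex, the Msh6 difference was again 0.75. Xrcc1 was higher by 0.56 (unadjusted p 0.049 in limma) with all arrays and by 0.43 (unadjusted p 0.15) without fed replicate 4. The fasting difference did not pass a test of its change with labelled sex in any repair gene: 0 of 30 had an unadjusted p under 0.05 in limma, beside 3.20% of all 19492 genes tested, and 0% were called. That count was 2222 genes without fasted replicate 4, which leaves the outlying fasted replicate 3 as the 1 fasted array labelled female.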

How the data were processed

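The deposited scanner files hold spot intensity on a linear scale. The authors made them with Agilent Feature Extraction 11.5.1.1, according to the submitters' processing notes and per the file headers, and the processed signal used here already has its background subtracted. A deposited matrix gives these arrays as log2 values (column medians of 7.73 to 8.33). Its ranks follow the processed signal, with a lowest Spearman correlation of 0.99986 over the arrays, and its centring is unknown.

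Control spots and outlier spots were left out (39429 probes remained), and the log2 signal, after subtracting the 75th percentile of its array, went into limma 3.58.1 in R 4.3.3 (eBayes with a mean trend). Group and labelled sex were terms, and p-values were adjusted over all genes tested. Probe names were kept as in the files, and of 52 probes for the 36 genes 47 had the same RefSeq symbol. All 36 genes are named. Levels on every array are given for genes with an unadjusted p under 0.05, separate groups or the 3 largest differences in each direction, and the other pathway genes named are from the 6 with the smallest p. Some items that this rule takes are not reported here. The genes and lists were chosen with earlier results of these data known. The test was run on simulated data of 19352 genes. Replicate numbers did not pair the arrays. Alternatives were other scalings, background corrections, filters, probe rules, blocks, weights and each array left out.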

Additional observations from a re-analysis of the deposited data

Results flagged for a closer look

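In 60 groups of 4 arrays, 4 held an array whose gap to the nearest other array took up most of the group's range, and about 1 group in 20 does so by chance. Nthl1 read -2.84 on fasted replicate 3, with -1.93 to -1.77 on the other fasted arrays and a gap of 0.845 of the range. Apex1 read 1.40 on the same array, with 0.88 to 0.96 on the other fasted arrays and a gap of 0.848. Neil1 read -2.52 on fasted replicate 2, with -1.38 to -1.17 on the other fasted arrays and a gap of 0.841. Cetn2 read 1.18 on fed replicate 4, with 1.51 to 1.55 on the other fed arrays and a gap of 0.88.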

How the results depend on the processing

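The count of genes called between fasted and fed crypts was 0 under all 24 alternatives with a test, and so was the count of repair genes. The smallest adjusted p over all genes was 0.0625 to 0.998, and for a repair gene 0.0827. The count of repair genes with an unadjusted p under 0.05 was 1 to 9 and that of all genes 465 to 5564, both highest with the above-background share of each array as a covariate. With the replicate number as a block (replicate block) 0 genes were called, and 1114 had an unadjusted p under 0.05 in limma. To look for pairing, each gene's deviations from its group mean, not its levels, were correlated between fasted and fed arrays. The same-number correlations of these deviations, 0.372, -0.469, -0.446 and 0.606, do not pair the arrays. Deviations of arrays on a shared slide correlated at 0.372, 0.535 and 0.606, and those of fasted with fed arrays of different slides at -0.51 to 0.502. Slide as a random block (consensus correlation 0.7006) left 0 genes called. In limma 8 repair genes and 3066 of all genes then had an unadjusted p under 0.05. With each array left out in turn, 0 to 5 genes were called for labelled sex (5 without fasted replicate 3), and 0 to 2222 for its interaction with feeding (2222 without fasted replicate 4, which leaves 1 fasted array labelled female). The mismatch median was 0.75 within the slide of fasted replicate 2, -0.39 to 0.39 with each array left out and -0.28 with the covariate named above. Of 717 values of single repair genes 75 had the other sign, in 16 genes. With quantile normalization Ddb1 was 0.20, Nthl1 0.0053 and Xrcc1 0.019. With normexp Ercc2 was 0.022, Mlh3 0.010, Msh3 -0.035, Nthl1 0.033 and Xrcc1 0.025. In the authors' matrix Ddb1 was 0.14, Mlh3 0.026, Nthl1 0.025 and Ung 0.024. With that covariate Ddb1 was 0.12, Ercc2 0.15, Gtf2h4 0.012, Msh3 -0.28, Xab2 0.025 and Xrcc1 0.035. With slide as a fixed block Mlh3 was 0.34, Nthl1 0.21, Rad23b -0.19, Tdg -0.051 and Xrcc1 0.19. With slide as a random block Gtf2h4 was 0.016, Mlh3 0.11, Neil1 0.005, Nthl1 0.075, Rad23b -0.15 and Xrcc1 0.060. With array weights Mlh3 was 0.046, Neil1 0.10, Nthl1 0.20, Rad23b -0.027 and Xrcc1 0.19. With the mean of a gene's probes Neil1 was 0.25. Without fasted replicate 3 and fed replicate 4 Mlh3 was 0.42, Neil2 -0.15, Nthl1 0.18 and Tdg -0.13, while Msh3, at 0.50, kept its sign. With each array left out in turn Ddb1 was -0.19 to 0.10, Ercc1 -0.31 to 0.0073, Ercc2 -0.29 to 0.15, Gtf2h1 -0.59 to 0.11, Gtf2h4 -0.26 to 0.14, Mlh3 -0.52 to 0.42, Msh3 -0.39 to 0.39, Mutyh -0.71 to 0.069, Neil1 -0.33 to 0.21, Neil2 -0.21 to 0.45, Nthl1 -0.22 to 0.21, Rad23b -0.10 to 0.26, Tdg -0.10 to 0.29 and Xrcc1 -0.14 to 0.15. The cause of these changes was not tested.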
